A study of Mus musculus with 6 samples.

Results

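The keratin family was followed in RNA of whole mouse lungs at E14.5, when the lung epithelium is branching. The members were the array features whose only annotated gene symbol is Krt followed by a number and at most 1 letter, with keratin-associated protein genes left out. This gave 52 features for 52 keratin genes, out of 19946 genes tested. Mutant lungs came from 3 embryos that carried Shh-Cre and floxed alleles written Foxp1flox/flox, a second Foxp1flox/flox and Foxp4flox/flox, and the series title and design have Foxp1, Foxp2 and Foxp4. Control lungs came from 3 embryos that carried Shh-Cre alone. Both groups were on a mixed C57BL/6 and 129X1 background, and both carried the Cre allele. Shh-Cre acts in the endoderm that makes the lung epithelium, and the mesenchyme in the same RNA keeps intact alleles. The labels do not give the sex or litter of the embryos.

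Keratins are the intermediate filament proteins of epithelial cells. A filament forms only from pairs that join a type I keratin with a type II keratin, and a chain without a partner is degraded. Single-layered epithelia such as that of the lung use the type II keratins Krt8 and Krt7 with the type I keratins Krt18 and Krt19, and Krt20 is a type I keratin of the gut and urothelium. Stratified epithelia use other pairs, such as Krt5 with Krt14 or Krt15 in basal cells, and hair follicles use a further set. The members were divided on that basis into 5 simple, 19 stratified and 23 hair keratins, and 5 keratins (Krt23, Krt80, Krt88, Krt90 and Krt222) were left outside these classes.

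Mouse type II keratin genes lie together on 1 chromosome, and type I genes on another, except for Krt18, which sits beside its partner gene Krt8. The promoter windows of Krt7, Krt8 and Krt18 are shown because Krt7 and Krt8 carry the main result and Krt18 is the neighbour and filament partner of Krt8. Each window runs from 250 bases before the annotated start to 20 bases after it, 5′ to 3′, from RefSeq assembly GRCm38.p6. Capitals mark matches on either strand to TATAAA of the core promoter box, GGGCGG of the GC box, TGTTTAC of forkhead factors and GCCNNNGGC of AP-2 factors, and matches that overlap are joined.
Krt7, chr15:101412153-101412422, plus strand: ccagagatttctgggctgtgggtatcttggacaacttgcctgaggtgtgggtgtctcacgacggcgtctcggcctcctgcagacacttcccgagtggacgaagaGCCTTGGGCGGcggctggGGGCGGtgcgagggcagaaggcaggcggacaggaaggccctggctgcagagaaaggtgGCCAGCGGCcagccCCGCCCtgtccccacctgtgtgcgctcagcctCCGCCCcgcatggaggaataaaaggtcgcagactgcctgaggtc
Krt8, chr15:102004323-102004592, minus strand: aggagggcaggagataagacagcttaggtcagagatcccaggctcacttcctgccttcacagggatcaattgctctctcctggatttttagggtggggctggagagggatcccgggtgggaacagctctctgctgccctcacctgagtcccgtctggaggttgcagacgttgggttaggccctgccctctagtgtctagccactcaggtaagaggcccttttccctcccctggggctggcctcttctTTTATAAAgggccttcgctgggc
Krt18, chr15:102027966-102028235, plus strand: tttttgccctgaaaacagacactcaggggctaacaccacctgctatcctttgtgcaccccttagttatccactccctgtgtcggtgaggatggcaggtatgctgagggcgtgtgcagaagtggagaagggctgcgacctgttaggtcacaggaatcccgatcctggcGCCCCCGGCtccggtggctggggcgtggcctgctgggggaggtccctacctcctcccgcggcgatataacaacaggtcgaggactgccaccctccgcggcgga
The Krt7 window held 4 GC boxes and 2 AP-2 matches, 1 of which overlaps a GC box. The Krt8 window held TATAAA at its annotated start, where both strands match in overlapping letters, and the Krt18 window held 1 AP-2 match. RefSeq windows were at hand for 36 of the 52 keratins, in 37 windows. None of these 37 windows held TGTTTAC, which was found in 3.38% of all 32851 windows. TATAAA was in 18 keratin windows (48.6%, against 12.9% of all windows), GGGCGG in 2 (5.41%, against 34.1%) and GCCNNNGGC in 6 (16.2%, against 14.8%). A match describes the letters in these windows only.

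Values are log2 signals from the robust multi-array average (RMA), 1 per feature and array, and are given for mutants 1 to 3 and then controls 1 to 3. The median over all features lay between 6.74 and 6.79 in mutants and between 6.70 and 6.76 in controls. The test was limma's moderated test with Benjamini-Hochberg adjustment over all genes and a threshold of 0.05. Among the targeted genes, Foxp2 was lower by 0.95 on the log2 scale (-0.95 ± 0.05 SE, adjusted p = 4.75e-05) and Foxp4 by 0.64 (-0.64 ± 0.10, adjusted p = 0.00591), while Foxp1 did not pass (-0.31 ± 0.08, adjusted p = 0.0661). All 9 lung epithelial markers read above the array median in all controls, and 7 were lower in mutants, 0 higher and 2 did not pass. Their median was -0.88, and Sftpc (-5.58), Cldn18 (-4.77), Sox2 (-2.08) and Foxa2 (-0.94) had the largest falls. Over all genes tested, 3.83% were lower and 3.84% higher. Mutant 1 stood apart in heart muscle genes. Their mean over 12 genes was 8.72 in mutant 1, 7.05 in mutant 2 and 6.95 in mutant 3, against 7.41 in each control. With all arrays 0 of the 12 passed. Without mutant 1, Actc1 (-2.32), Myl4 (-0.60), Myh6 (-0.55) and Tnni3 (-0.36) were lower and the other heart muscle genes did not pass. Results are also given without mutant 1 where that changes a call or a count, or moves a simple keratin by a large part of its difference.

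Of the 52 keratins, 3 were lower in mutant lungs (Krt7, Krt8 and Krt23), 0 were higher and 49 did not pass. Over all genes tested 7.66% were called, 3.83% lower and 3.84% higher, so the family as a whole was called about as often as other genes. An unadjusted p under 0.05 was reached by 12 of the 52 keratins and by 3957 of the 19946 genes tested. Of the simple class, 2 of 5 members were lower, and the median log2 difference was -0.44. Of the 19 stratified and 23 hair keratins 0 passed in either direction, with medians of -0.036 and -0.027 and 4 and 3 members at an unadjusted p under 0.05. The median over all genes tested was -0.0055. The number of keratins called lower was 5 without mutant 1, where Krt18 and Krt15 joined, and 2 without control 2 or control 3, where Krt23 was lost.

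**Figure D1:**
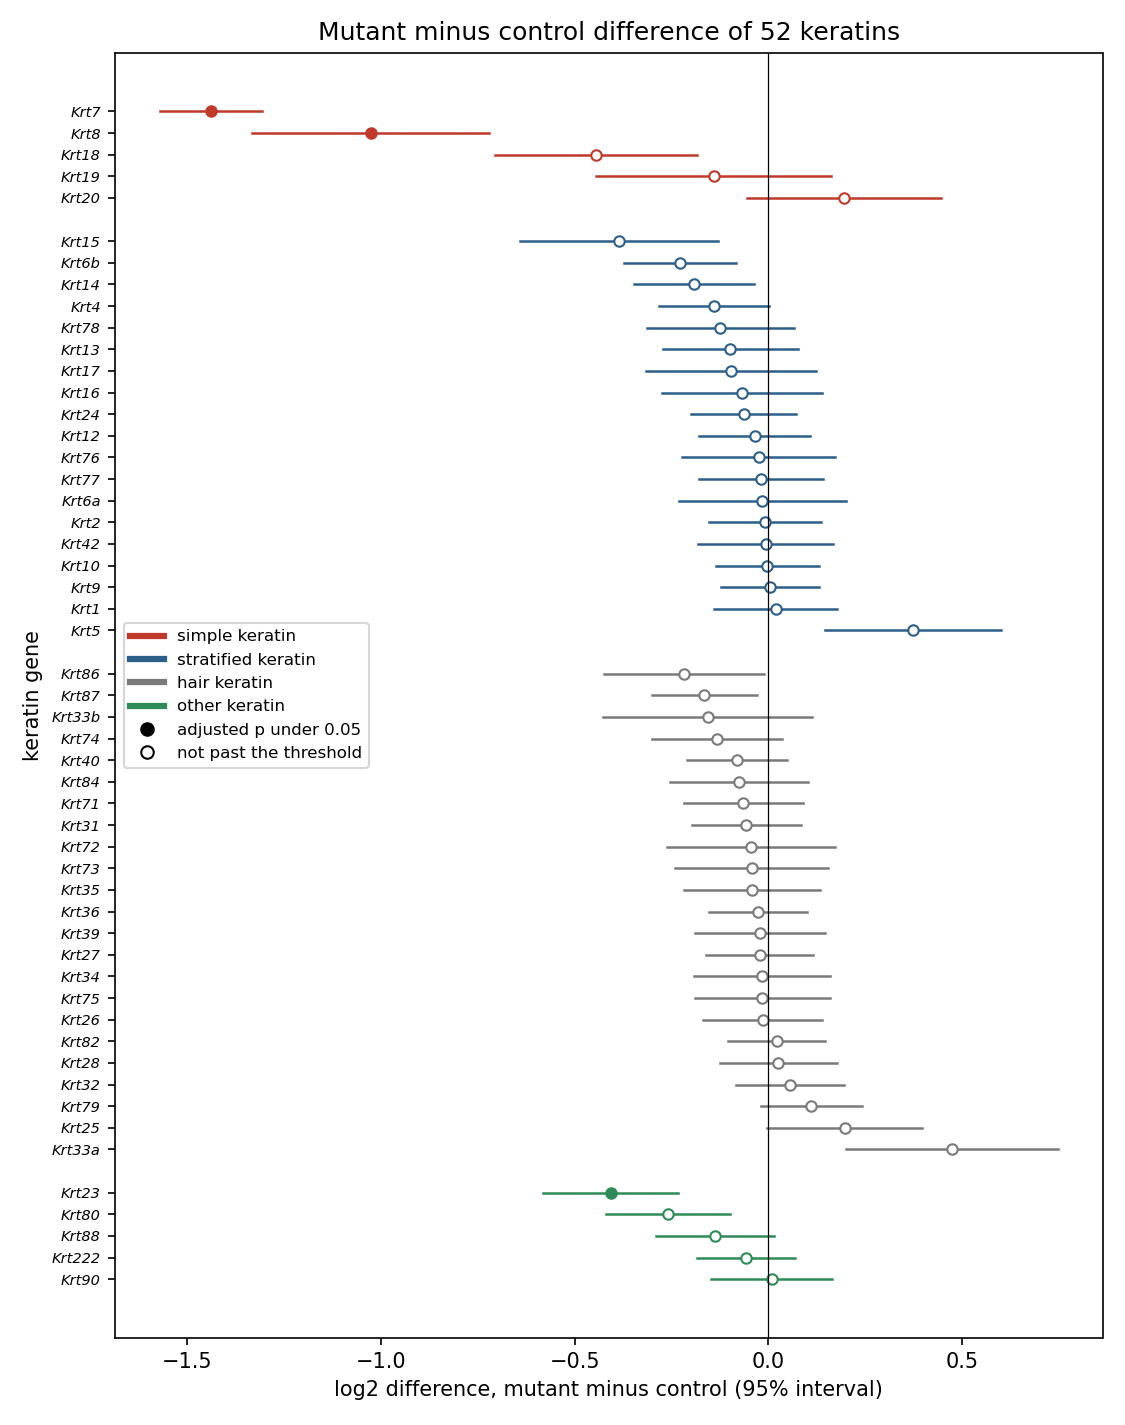
Log2 difference of each of the 52 keratins, mutant minus control, with its 95% interval from limma, grouped by class; filled points passed an adjusted p of 0.05. Krt7 and Krt8 lie far to the left at -1.44 and -1.03, and the other points lie between -0.44 (Krt18) and 0.47 (Krt33a).

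Krt7, the type II keratin of simple glandular and duct epithelia, had the largest fall of the family. It read 8.19, 8.13 and 8.17 in mutants, against 9.65, 9.54 and 9.61 in controls. The groups were more than a unit apart, and the arrays within each group were nearly level. The difference was -1.44 ± 0.057 (SE, n = 3 per group, 95% interval -1.57 to -1.31), or 2.71-fold (limma adjusted p = 1.19e-05). It stayed between -1.47 and -1.41 with any array left out.

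Krt8, the type II keratin of simple epithelia from the early embryo on, read 9.43, 9.98 and 9.90 in mutants, against 10.80, 10.75 and 10.84 in controls. All mutants lay below all controls, and mutant 1 lay below the other two. The difference was -1.03 ± 0.13 (95% interval -1.33 to -0.72), or 2.04-fold (limma adjusted p = 0.00294). Without mutant 1 it was -0.86 (adjusted p = 0.00037).

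Krt18, the type I partner of Krt8, read 9.34, 9.71 and 9.78 in mutants, against 10.15, 10.01 and 10.003 in controls. The groups did not overlap, and mutant 1 was again the lowest. The difference of -0.44 ± 0.11 (95% interval -0.71 to -0.18) narrowly missed the threshold (limma adjusted p = 0.054). It passed without mutant 1 (-0.31, adjusted p = 0.0438) and without mutant 3 (-0.53, adjusted p = 0.0463). It did not pass without control 1 (adjusted p = 0.188), control 2 (0.139) or control 3 (0.142).

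Krt19, a small type I keratin of ducts, mesothelium and progenitor cells, read 8.43, 8.94 and 8.58 in mutants, against 8.73, 8.68 and 8.95 in controls. The groups overlapped, and mutant 2 lay among the controls. The difference was -0.14 ± 0.13 (limma adjusted p = 0.652), and its 95% interval of -0.44 to 0.16 does not reach the falls of Krt7 and Krt8. It was -0.030 without mutant 1 and -0.29 without mutant 2, and it did not pass whichever array was left out. Krt20 read 5.72, 5.27 and 5.43 in mutants, against 5.27, 5.34 and 5.22 in controls. These values are below the array median in every lung, the groups overlapped, and the difference was 0.20 ± 0.11 (adjusted p = 0.383). Mutant 1 was the highest, and the difference was 0.074 without it and 0.30 without mutant 2.

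**Figure D2:**
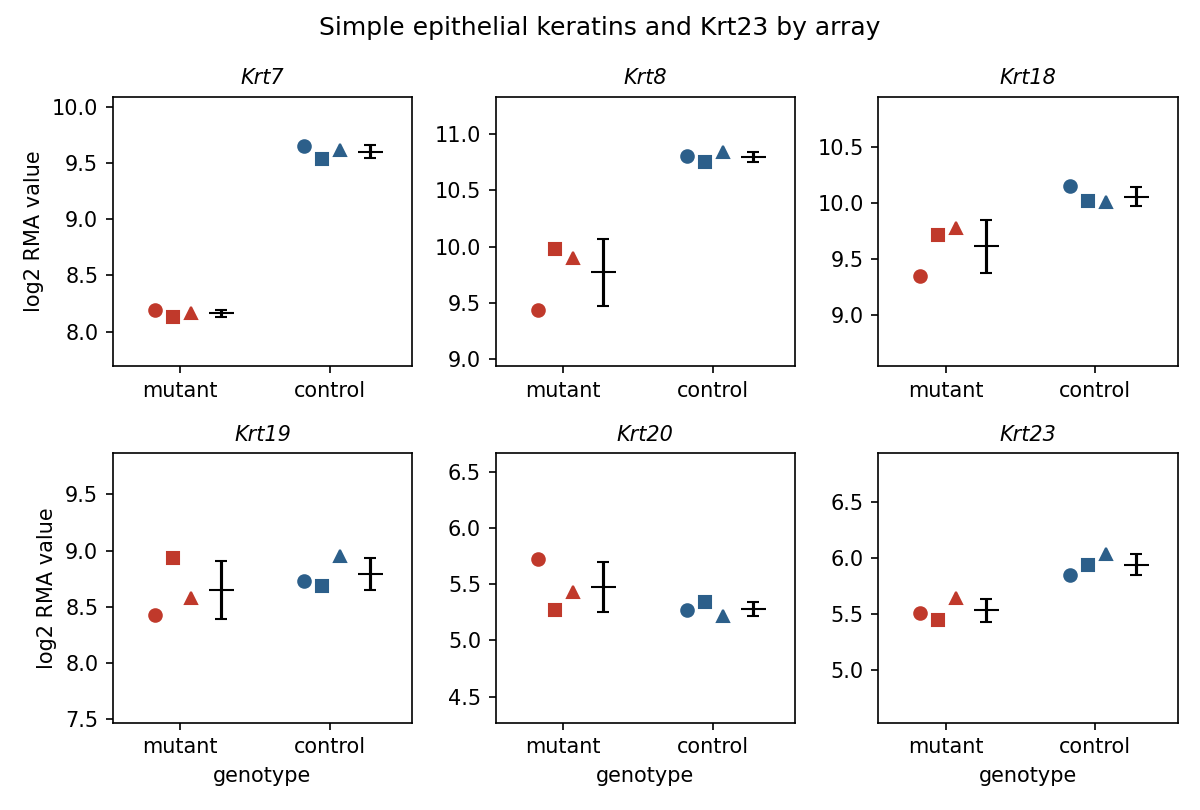
Log2 RMA value of the 5 simple keratins and Krt23 in each array, mutants at the left and controls at the right of each panel; circle, square and triangle are embryos 1, 2 and 3, the bar is the mean with the SD of 3 arrays, and every panel spans the same log2 range. Krt7, Krt8, Krt18 and Krt23 do not overlap between groups, and Krt19 and Krt20 do.

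The members of the simple class were also compared with each other within arrays, a choice made after their values were seen. A difference between 2 features of the same array does not depend on that array's overall scale. Of the 10 pairs of simple keratins, 8 had groups that did not overlap. Krt8 minus Krt18 was 0.09, 0.27 and 0.12 in mutants, against 0.65, 0.74 and 0.84 in controls. The gap between these partner genes was smaller in every mutant, by 0.58 on average (-0.58). Krt7 minus Krt19 was -0.23, -0.81 and -0.41 in mutants, against 0.92, 0.85 and 0.66 in controls, a change of -1.30. Krt7 minus Krt18 changed by -0.99 and Krt8 minus Krt19 by -0.89, and in each of these 4 pairings of a type II with a type I keratin every mutant lay below every control. Krt7 minus Krt8 was -1.24, -1.85 and -1.73 in mutants, against -1.15, -1.21 and -1.22 in controls, a change of -0.41 without overlap. Krt18 minus Krt19 overlapped between groups (change -0.30, exact permutation p = 0.2). The remaining pairs involve Krt20, which lay below the array median in every lung. Krt7, Krt8 and Krt18 minus Krt20 did not overlap (changes -1.63, -1.22 and -0.64), and Krt19 minus Krt20 did (-0.34). The 8 pairs that did not overlap each had a two-sided exact permutation p of 0.1, the smallest that 3 against 3 arrays allow, or 0.125 adjusted over the 10 pairs. These pairs share genes, so they are not separate observations.

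Whole lung was measured, so fewer epithelial cells and less keratin RNA per epithelial cell cannot be told apart for any member. No scale used here separates them. The simple keratins were set beside 16 genes shared by most epithelia, none of them a keratin. Of these, 8 were lower in mutants, 0 were higher and 8 did not pass, where 3.83% of all genes were lower and 3.84% higher. Their median was -0.39, and without mutant 1 the count was 7 lower. Without control 1 or control 2 the calls of Cldn6, Llgl2, Marveld3, Esrp1 and Epcam were lost. The calls of Cldn3, Prss8 and St14 held whichever array was left out. They include the adhesion gene Epcam, at -0.33 ± 0.075 (limma adjusted p = 0.0384, a call that held only without mutant 3, with p up to 0.147), and Cdh1, which encodes E-cadherin, at -0.19 ± 0.053 (adjusted p = 0.0684). Prss8 (-0.89), St14 (-0.75) and Cldn3 (-0.75), 2 membrane proteases and a claudin, had the largest falls. The mean of the 16 genes was 8.66, 8.97 and 8.97 in mutants, against 9.33, 9.29 and 9.23 in controls, a difference of -0.41, and mutant 1 was the lowest, as it was for Krt8 and Krt18.

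Measured against that mean in the same array, Krt7 stood at -0.47, -0.84 and -0.81 in mutants, against 0.32, 0.25 and 0.39 in controls. Krt8 stood at 0.77, 1.01 and 0.93 in mutants, against 1.47, 1.47 and 1.61 in controls. Both were lower in every mutant than in any control on this scale, by 1.03 (-1.03) for Krt7 and by 0.61 (-0.61) for Krt8, each with an exact permutation p of 0.1. Krt18 stood at 0.68, 0.74 and 0.80 in mutants, against 0.81, 0.73 and 0.77 in controls, and so overlapped (change -0.032, exact permutation p = 0.5). Krt19 stood at -0.24, -0.03 and -0.39 in mutants, against -0.60, -0.60 and -0.28 in controls, a change of 0.27 in the other direction, also with overlap (exact permutation p = 0.2). Krt20, below the array median in every lung, stood at -2.94, -3.70 and -3.54 in mutants, against -4.06, -3.94 and -4.01 in controls. That is a change of 0.61 without overlap (exact permutation p = 0.1). The epithelial mean differed by -0.41, so this scale raises every gene in mutants by that amount on average. Krt7 and Krt8 thus differed between groups by more than the mean of these 16 genes did. The differences of Krt18 and Krt19 from that mean lay within the spread of the arrays. Falls of such size were not particular to keratins. The 9 lung epithelial markers had a median of -0.88, with Sftpc at -5.58 and Sox2 at -2.08, and Prss8 among the 16 genes was at -0.89. Of the epithelial genes used as a scale, 8 were themselves called lower.

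**Figure D3:**
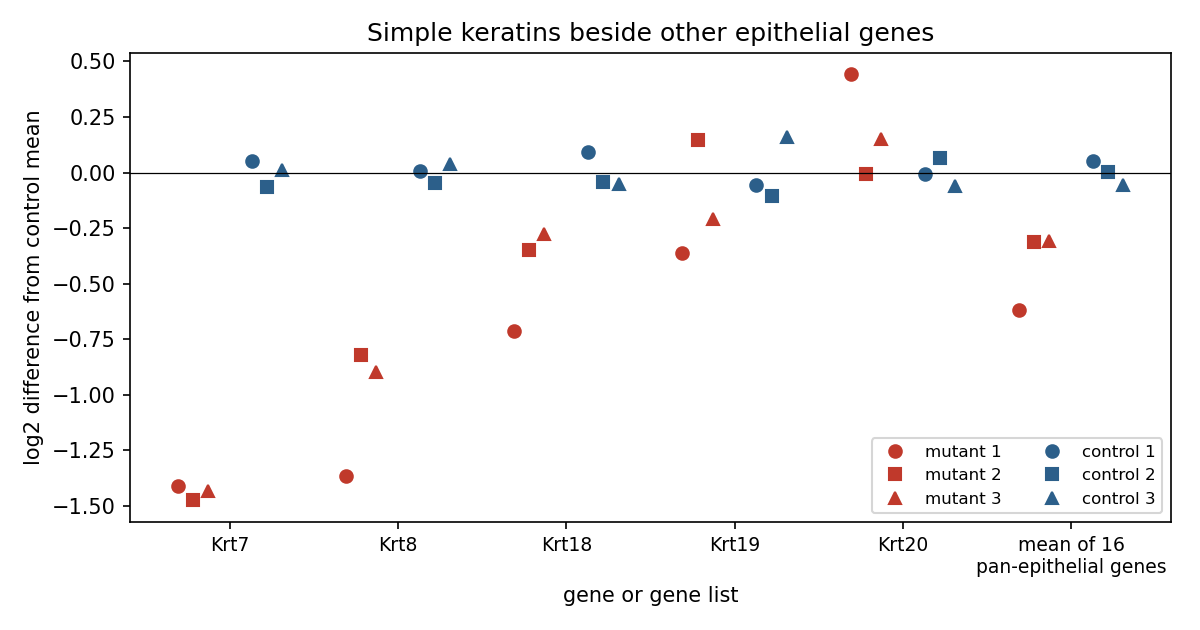
Log2 difference of each array from the mean of the 3 controls, for the simple keratins and for the mean of 16 pan-epithelial genes; red points at the left of each gene are mutants and blue points at the right are controls. Mutants lie between -1.47 and -1.41 for Krt7, between -1.37 and -0.82 for Krt8, and between -0.62 and -0.31 for the epithelial mean, while Krt19 and Krt20 overlap the controls.

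Mesothelium, the sheet around the lung, also expresses Krt8, Krt18 and Krt19 and is not reached by Shh-Cre. Of 8 mesothelial markers, 1 was higher in mutants (Lrrn4, 0.67 ± 0.12, limma adjusted p = 0.0157, up to 0.0725 with 1 array left out), 0 were lower and 7 did not pass, and the median was 0.023. With all arrays, 3.83% of all genes were lower and 3.84% higher. Without mutant 1 the counts of the list were 1 higher and 1 lower. Their mean was 7.87, 7.55 and 7.53 in mutants, against 7.62, 7.47 and 7.62 in controls. The share of each simple keratin's signal that comes from mesothelium was not tested.

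Outside the simple class, the sole keratin past the threshold was Krt23, a type I keratin. It read 5.51, 5.44 and 5.65 in mutants, against 5.85, 5.94 and 6.04 in controls. All mutants lay below all controls, and every value is below the array median. The difference was -0.41 ± 0.076 (limma adjusted p = 0.016), or 1.33-fold. The call ended without control 2 (adjusted p = 0.0678) or control 3 (adjusted p = 0.0758), and relative to the mean of the 16 epithelial genes the difference was 0.0053 with overlap (exact permutation p = 1). Krt80, a type II keratin of several epithelia, read 6.94, 6.74 and 6.89 in mutants, against 7.11, 7.06 and 7.18 in controls. Its groups did not overlap either, and it did not pass (-0.26 ± 0.069, adjusted p = 0.0655). Krt88 (-0.14) and Krt90 (0.0084) did not pass, nor did Krt222 (-0.058), which was chosen after its value was seen.

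The stratified keratins were dim throughout. None of the 19 read above the array median in all controls, and their values in all arrays lay between 4.32 and 6.85. Low values leave little room for a fall, so the lack of calls does not show that these genes were unchanged. Krt5 read 6.60, 6.49 and 6.83 in mutants, against 6.37, 6.27 and 6.15 in controls. Every mutant was above every control, and the difference of 0.37 ± 0.098 did not pass (limma adjusted p = 0.0618), although it did without mutant 2 (0.45, adjusted p = 0.0281). Krt15, another basal keratin, read 6.64, 6.31 and 6.22 in mutants, against 6.85, 6.67 and 6.81 in controls. Its mutants were all below its controls (-0.38 ± 0.11, adjusted p = 0.0839), and it passed without mutant 1 (-0.51, adjusted p = 0.00875). Krt14, the usual partner of Krt5 and chosen after its value was seen, was at -0.19 ± 0.067 (adjusted p = 0.152).

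Trp63, the transcription factor of basal cells, read 6.99, 7.07 and 6.95 in mutants, against 6.52, 6.79 and 6.69 in controls. It was higher by 0.34 ± 0.078 (limma adjusted p = 0.0387), a call that ended without any of mutants 1 to 3, control 1 or control 3 (adjusted p up to 0.124). In the list of 11 basal and stratified markers without keratins, 2 were higher (Trp63 and the desmosomal cadherin Dsc3), 1 was lower (Perp, a tetraspan desmosomal protein) and 8 did not pass. Among all genes, 3.84% were higher and 3.83% lower. The median of the list was 0.0070, and without mutant 1 its counts were 1 higher and 0 lower.

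Among the other stratified keratins named by the rule, Krt6b of activated keratinocytes was at -0.23 ± 0.063 (limma adjusted p = 0.0731), while Krt12 of the cornea (-0.036), Krt42 (-0.0065) and Krt10 of suprabasal epidermis (-0.0025) were near 0. Of the 23 hair keratins, 2 (Krt33b and Krt87) read above the array median in all controls. Krt33a had the largest difference, with 6.50, 6.51 and 6.19 in mutants, against 5.76, 5.88 and 6.14 in controls. Mutants were all above controls, though mutant 3 and control 3 nearly met (0.47 ± 0.12, adjusted p = 0.0509). Krt33a passed without mutant 3 (adjusted p = 0.0297) or control 3 (adjusted p = 0.0423), and with no other array left out (up to 0.175, without control 1). Krt33b, a close relative in sequence, was at -0.16 ± 0.12 (adjusted p = 0.55), and whether the probes tell these genes apart was not tested. Krt86 (-0.22), Krt87 (-0.17) and Krt34 (-0.016) did not pass. The other 18 hair keratins lay between -0.13 and 0.20.

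Over the whole family, 41 differences were below 0 and 11 above it, against 10369 and 9577 over all genes tested. Relative to the control mean, the median of the stratified keratins was -0.0048, -0.14 and 1.33e-05 in mutants 1 to 3. That of the hair keratins was -0.0031, -0.090 and -0.015. In both classes mutant 2 was the lowest. All mutants lay below all controls for 13 of 52 keratins, against 12.6% of all genes, and above them for 3, against 13.4%. Together 16 of 52 keratins did not overlap between groups, against 25.9% of all genes. Of the 13, 3 were simple keratins, 4 stratified, 3 hair and 3 of no class, and 10 of them did not pass the test. Most of these shifts were small, as over all genes. A difference of less than 0.25 in either direction was found for 44 of the 52 keratins and 17387 of the 19946 genes tested.

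The called keratins lay on both keratin chromosomes. Of 25 keratins on chromosome 15, 2 were lower and 0 higher, and of 27 on chromosome 11, 1 was lower and 0 higher. The protein-coding genes on either side of Krt7 are Krt80 (-0.26) and Krt87 (-0.17), neither of which passed. Beyond Krt80, Smim41, which is not a keratin and was chosen after its value was seen, was lower (-1.01 ± 0.083, adjusted p = 0.000313). Krt8 lies between Krt78 (-0.12 ± 0.082, limma adjusted p = 0.485) and Krt18. On the other side of Krt18 is Eif4b, a translation initiation factor gene, at -0.0054 ± 0.055 (adjusted p = 0.977). Next to Krt19 are Krt15 (-0.38) and Krt9 (0.0040).

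Desmosomes anchor keratin filaments at the cell surface, and plakins link the filaments to them. Of 20 measured genes of desmosomes and keratin linkers, 4 were lower, 4 higher and 12 did not pass, where 3.83% of all genes were lower and 3.84% higher, and the median was -0.054. Desmoplakin (Dsp), the plakin that ties keratin to desmosomes, read 8.17, 8.11 and 8.14 in mutants, against 8.95, 9.06 and 9.02 in controls. The groups were wide apart with little spread, as for Krt7 (-0.87 ± 0.056, limma adjusted p = 0.0001). Of the desmosomal cadherins, Dsg2 was lower, Dsc2 and Dsc3 were higher, and Dsg1b, Dsg3 and Dsg4 did not pass. Dsg2, that of simple epithelia and heart, was at -0.32 ± 0.060 (adjusted p = 0.0176, up to 0.091 without control 3). The share of its signal that comes from heart was not tested.

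Dsc2 read 6.69, 6.68 and 6.44 in mutants, against 5.76, 6.02 and 6.06 in controls, all mutants above all controls (0.65 ± 0.10, limma adjusted p = 0.00714). Dsc3, a desmocollin of basal cells, read 6.35, 6.24 and 5.68 in mutants, against 5.26, 4.87 and 5.14 in controls (1.00 ± 0.18, adjusted p = 0.0128, and 0.0555 without control 2 and 0.0528 without control 3). It was higher in all 3 mutants, least in mutant 3. Perp was at -0.59 ± 0.14 (adjusted p = 0.0461), a call that ended without mutant 1 or any control (adjusted p up to 0.167). The plakins Evpl (-0.34), Ppl (0.27) and Dst (0.40) passed as well, and each of these calls was lost without any of at least 4 of the 6 arrays (highest adjusted p 0.154 for Evpl, 0.147 for Ppl and 0.143 for Dst). Without mutant 1 the counts of the list were 3 lower and 2 higher.

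**Figure D4:**
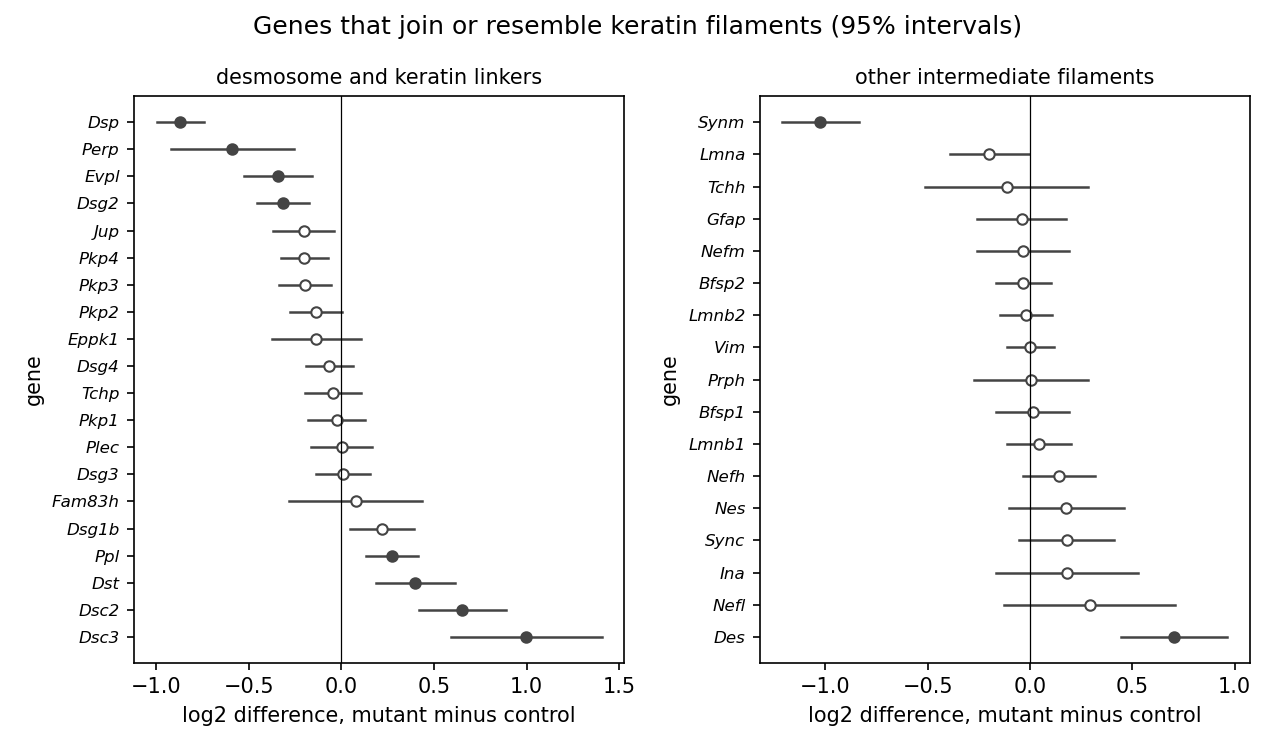
Log2 difference, mutant minus control, with 95% intervals for 20 genes of desmosomes and keratin linkers and for 17 genes of other intermediate filaments, counting the filament-associated Tchh; filled points passed an adjusted p of 0.05. Desmosomal genes spread from -0.87 (Dsp) to 1.00 (Dsc3), and among the other filaments Synm (-1.02) and Des (0.70) stand apart from the rest.

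Among 17 genes of other intermediate filaments, counting the filament-associated Tchh, 1 was lower, 1 higher and 15 did not pass, close to the 7.66% called over all genes. Their median was 0.0054. Synemin (Synm), a filament protein of muscle, read 6.995, 6.82 and 6.74 in mutants, against 7.94, 7.91 and 7.78 in controls (-1.02 ± 0.081, limma adjusted p = 0.000276). Desmin (Des), the main filament of muscle, read 10.09, 9.73 and 9.84 in mutants, against 9.21, 9.01 and 9.34 in controls (0.70 ± 0.11, adjusted p = 0.00805). Neither gene overlapped between groups, and they changed in opposite directions. Heart muscle genes were not level across the arrays, and the share of these signals that comes from heart was not tested. Vimentin (Vim), the filament of mesenchymal cells and chosen after its value was seen, was at 12.70 ± 0.014 (SD) in mutants and 12.69 ± 0.013 in controls. Its difference was 0.0021 ± 0.051, with a 95% interval of -0.11 to 0.12.

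Of 16 measured transcription factors known to act on keratin genes, 5 were lower, 2 higher and 9 did not pass, where 3.83% of all genes were lower and 3.84% higher. The median of the list was -0.17. Gata3, a factor of several stratified and glandular epithelia, read 7.88, 8.31 and 7.99 in mutants, against 6.80, 6.58 and 6.59 in controls (1.40 ± 0.12, limma adjusted p = 0.000313). The ETS factor Elf5, of the distal lung epithelium and other glands, read 5.78, 5.90 and 5.97 in mutants, against 7.55, 7.02 and 7.19 in controls (-1.37 ± 0.13, adjusted p = 0.000597). Both changes were larger than the spread within either group. Ehf, another epithelial ETS factor, was at -0.62 ± 0.11 (adjusted p = 0.0114, and 0.0566 without control 2), and Elf3 at -0.49 ± 0.12 (adjusted p = 0.0462, up to 0.155 without control 1). Without mutant 1 the counts were 4 lower and 1 higher. Of markers of other tissues that express keratins, the thymic epithelial list had 1 of 7 members higher, which was Trp63, and 0 lower, and the liver list 1 of 8 lower (Afp, -0.28, lost with 1 array left out in 4 of 6 cases) and 0 higher. Without mutant 1 the thymic list had 0 higher and the liver list 1 lower and 1 higher.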

How the data were processed

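RNA of 3 mutant and 3 control lungs was hybridised to 6 single-colour arrays. The deposited table holds the authors' log2 values, 1 per feature and array. Oligo, RMA and limma appear, with no version, among the tools in the submitters' processing notes. Their settings and the genome build were not given in the sources used here. The values carry no detection calls. The number of arrays limits the precision.

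Of 35556 features, 21797 had 1 gene symbol and 1613 several in the platform annotation. A gene with several features was read at the one with the highest mean, which left 19946 genes, and each keratin had 1 feature. Symbols were checked through RefSeq (GRCm38.p6), which changed 0. The protein-coding keratins Krt81 and Krt83 were not analysed here. The log2 values were compared by a two-sided moderated test on genotype alone (limma 3.58.1, R 4.3.3, functions lmFit and eBayes, 7.96 degrees of freedom), with no filter on low values. The fit was tested on simulated data. Nothing in the labels beyond the word embryos says how the samples of a group were raised, so p-values measure the spread between these samples.

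The genes named are the simple keratins, every keratin past the threshold, in each other class the 3 with the highest mean and the 3 with the smallest p, up to 4 members past the threshold per other list, the targeted genes, Epcam and Cdh1. Other genes are marked as chosen after their values were seen, or complete a count. Krt88 was in no list and was placed with the unclassed keratins. The members, classes and lists were chosen with earlier results of these data known. The alternatives were another quantile normalization, median centring, leaving out the dimmest genes, testing or averaging all features, a variance trend, array weights, the replicate number as a block, each array left out, a threshold of 0.1, and scaling to epithelial genes. The counts of the other lists without mutant 1 were added after seeing the data.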

Additional observations from a re-analysis of the deposited data

How the results depend on the processing

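Krt7 and Krt8 were lower and passed under all 15 alternative fits (differences -1.47 to -1.03 and -1.13 to -0.61). The fit scaled to epithelial genes gave the simple keratins, Krt23 and Krt80 the same SE of 0.148, so each gene's own spread did not enter. Under that fit Krt20 passed as higher (0.61, limma adjusted p = 0.000394), and its calls are weak evidence for a single gene. The number of keratins called lower was 3 and became 6 after another quantile normalization, 5 with a variance trend and robust moderation, 6 with array weights, 7 at a threshold of 0.1, and between 2 and 5 with 1 array left out. The number called higher was 0 and became 1 under the first 3 of these and after median centring, 2 at a threshold of 0.1 and between 0 and 2 with 1 array left out. Calls over all genes, 1528, lay between 774 and 1745 with 1 array left out, and were 876, 793 and 774 without control 1, 2 or 3. Krt18 passed under 6 alternatives (adjusted p 0.036 to 0.0463) and did not under the other 9 (adjusted p 0.0541 to 0.833). The median of the simple keratins was -0.74 without the dimmest genes, a filter that 20 keratins and 4 simple ones passed. Scaling to the epithelial genes raises all genes by 0.41, so that 83% of them are called higher, and by that construction 36 keratins were called higher and the medians became -0.032, 0.38 and 0.39 for simple, stratified and hair keratins. Under it signs turned for Krt23 (0.0053), Krt19 (0.27), Krt42 (0.41), Krt12 (0.38), Krt10 (0.41), Krt6b (0.19), Krt15 (0.028), Krt33b (0.26), Krt87 (0.25), Krt34 (0.40), Krt86 (0.20), Krt80 (0.15) and Krt88 (0.27). Uncalled keratins near 0 also turned with single arrays left out, where Krt42 ranged over -0.069 to 0.059, Krt12 over -0.063 to 0.012, Krt10 over -0.034 to 0.033, Krt34 over -0.076 to 0.036 and Krt90 over -0.042 to 0.052. Krt42 turned with array weights (0.014), and Krt90 after quantile normalization (-0.010) and centring (-0.014). The cause of the other changes was not tested. The labels give same-numbered embryos only a number in common. Their deviations correlated at -0.069, 0.049 and 0.15, against -0.15 to 0.079 for the other pairs. With the replicate block 3 keratins were lower and 0 higher, and 1137 genes passed. The dimness of most keratin features limits what falls could be seen.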
